A study of Mus musculus with 21 samples.

Results

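The goblet cell genes described here are 9 genes chosen by symbol, out of 24062 genes in the deposited count table: Muc2, Tff3, Fcgbp, Zg16, Agr2, Spdef, Atoh1, Retnlb and Spink4. The rule names the genes and sets no threshold on measured values, and each of the 9 symbols was found once. Levels were measured by RNA sequencing of mouse colon in 21 libraries, 3 in each of 7 groups. The strain was C57BL/6. Mice had a wild-type App gene or the knock-in App NL-G-F, which puts mutations of familial Alzheimer's disease into the gene for the amyloid precursor protein. The groups were wild-type male normal colon, wild-type male tumour, knock-in male normal colon, knock-in male tumour, wild-type female normal colon, wild-type female tumour and knock-in female normal colon. A knock-in female tumour group was not analysed here. Tumours were induced with AOM/DSS, a carcinogen (azoxymethane) followed by a chemical that injures the colon lining (dextran sulfate sodium). The normal libraries are labelled untreated, whereas the series text speaks of colon beside tumours or of normal colon where none formed, so tumour and treatment cannot be told apart from the labels. The age of the mice is not given in the sources used here, and the zygosity of the knock-in is not spelled out (its libraries carry the code KIKI). Gene counts hold no check of a knock-in, so genotypes are those of the labels. The labels do not say that libraries of a group came from separate animals, so p-values measure the spread between libraries, which may be technical. The series asks whether mutations in App affect colorectal tumours differently in the sexes.

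Goblet cells are the mucus-secreting cells of the intestinal epithelium. They arise in the crypt from secretory progenitors, in which low Notch activity permits expression of the transcription factor Atoh1, and they mature under the factor Spdef. Their main product in the colon is the gel-forming mucin Muc2, which forms the mucus layer that keeps bacteria away from the epithelium. Fcgbp and Zg16 are mucus proteins, Zg16 a lectin that binds bacterial cell walls, and the trefoil peptide Tff3 supports repair of the epithelium. Agr2 is a disulfide isomerase of the endoplasmic reticulum needed to fold Muc2, Retnlb is an antimicrobial resistin-like protein, and Spink4 is a small secreted protein of the Kazal inhibitor family.

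In the GENCODE annotation of GRCm38, the assembly the submitters call mm10, 3 of the 9 genes lie on chromosome 7: Muc2 (chr7:141690340-141754693, plus strand), Fcgbp (chr7:28071236-28120862, plus strand) and Zg16 (chr7:127050156-127087328, minus strand). Tff3 (chr17:31125306-31129646) and Spdef (chr17:27714352-27728955) lie on the minus strand of chromosome 17. Agr2 is at chr12:35992907-36004087, Atoh1 at chr6:64729125-64731245, Retnlb at chr16:48816856-48818892 and Spink4 at chr4:40920052-40931395, each on the plus strand. The RefSeq promoter table for GRCm38.p6 held 5 of the 9 genes: Muc2, Fcgbp, Agr2, Spdef and Atoh1. The 250 bases before the RefSeq start were searched on both strands for 2 E-boxes that bHLH factors such as Atoh1 can bind (CAGCTG and CAGATG), for the CDX motif TTTATG and for the ETS-type motif CCGGAT linked to Spdef. CAGCTG stood in the windows of Muc2 and Fcgbp and in 13.0% of 32851 mouse promoters of that length. TTTATG, or CATAAA on the other strand, stood in those of Agr2 and Spdef and in 10.8% of promoters. CAGATG, in 14.4% of promoters, and CCGGAT, in 4.94%, were in none of the 5 windows, and no 2 matches overlapped. The window of Atoh1 had no match, and the 4 windows with one are shown. They are written 5′ to 3′ on the strand of the gene with the match in capitals, which marks letters and not a site shown to be bound.
Muc2, chr7:141690090-141690339, plus strand, match beginning 112 bases before the start: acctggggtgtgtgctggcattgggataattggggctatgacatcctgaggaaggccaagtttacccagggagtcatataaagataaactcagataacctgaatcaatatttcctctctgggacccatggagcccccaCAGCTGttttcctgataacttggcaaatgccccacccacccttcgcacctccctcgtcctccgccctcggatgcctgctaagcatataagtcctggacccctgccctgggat
Fcgbp, chr7:28070986-28071235, plus strand, match beginning 208 bases before the start: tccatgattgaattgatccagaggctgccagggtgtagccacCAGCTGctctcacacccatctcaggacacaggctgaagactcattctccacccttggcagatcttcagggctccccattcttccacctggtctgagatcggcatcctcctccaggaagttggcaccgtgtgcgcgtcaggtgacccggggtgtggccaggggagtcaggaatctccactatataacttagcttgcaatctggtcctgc
Agr2, chr12:35992675-35992924, plus strand, match beginning 47 bases before the start: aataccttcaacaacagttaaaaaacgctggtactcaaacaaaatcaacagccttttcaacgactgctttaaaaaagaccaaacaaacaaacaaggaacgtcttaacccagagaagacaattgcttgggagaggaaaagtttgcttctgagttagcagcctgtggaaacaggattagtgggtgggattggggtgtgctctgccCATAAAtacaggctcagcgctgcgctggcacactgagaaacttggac
Spdef, chr17:27728952-27729201, minus strand, match beginning 191 bases before the start: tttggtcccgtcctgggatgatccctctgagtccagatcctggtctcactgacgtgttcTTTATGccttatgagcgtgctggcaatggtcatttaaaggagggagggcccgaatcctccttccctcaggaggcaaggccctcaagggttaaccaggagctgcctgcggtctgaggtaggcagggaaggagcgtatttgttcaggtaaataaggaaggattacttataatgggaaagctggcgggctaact

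Library totals ran from 3414123 counts in wild-type male tumour replicate 2 to 26174008 in wild-type female normal replicate 1, so that 3 counts corresponded to between 0.127 and 0.873 CPM (counts per 1e+06 counts of the library, after TMM scaling). The 9 genes together took 0.317% to 4.53% of all counts in a library. Each library held epithelial RNA: the summed CPM of 10 epithelial markers lay between 6386 and 11689. Library numbers 152 to 154, later than the rest, belong to replicate 3 of the knock-in male tumours and to replicates 2 and 3 of the tumours of wild-type females; the labels name no batch, and with a term for these 3 libraries the number of goblet cell genes called stayed 7 in wild-type females and 5 in knock-in males and was 2 between male tumours. One library stood apart within a goblet-related list. Knock-in female normal replicate b had 20873 counts of Muc5b, a gel-forming mucin of airways and salivary glands, against 6 to 37 in the other 20 libraries. It also had 37 counts of the gastric mucin gene Muc5ac, against 0 to 3, and 44 of the sialyltransferase gene St6galnac1, against 0 to 9. Its values of Muc2, Tff3, Fcgbp, Zg16, Agr2, Atoh1 and Spink4 lay near those of replicates 1 and a. Spdef was higher in it, at 39.0 CPM against 26.25 and 26.2, and Retnlb had 0 counts against 14 and 5. The counts that rest on knock-in females are also given without it.

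Per kilobase of annotated exon, Agr2 and the secreted products other than Retnlb far exceeded the transcription factors. In wild-type female normal colon, mean levels were 2136 CPM per kilobase for Tff3, 1917 for Fcgbp, 1900.0 for Muc2, 1635 for Zg16, 629 for Spink4 and 383 for Agr2, against 27.7 for Atoh1 and 25.1 for Spdef. Retnlb, though secreted, was lower still, at 9.24. In wild-type male tumours the order differed, with Muc2 at 276, Tff3 at 225, Spink4 at 190.4, Fcgbp at 151 and Zg16 at 59.6 CPM per kilobase. The annotation marks Muc2 as a fragmented locus, so its annotated length may be incomplete and its level per kilobase is uncertain. Between groups, on the CPM scale, wild-type female normal colon had the highest mean for 8 of the 9 genes, Atoh1 excepted, and wild-type male tumours the lowest for 7, Retnlb and Spink4 excepted. Tff3, Fcgbp, Zg16 and Agr2 in wild-type female normal colon did not overlap with the group next below in the order of means. Knock-in and wild-type male normal colon were neighbours in that order for each of the 9 genes except Atoh1 and overlapped throughout.

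**Figure D1:**
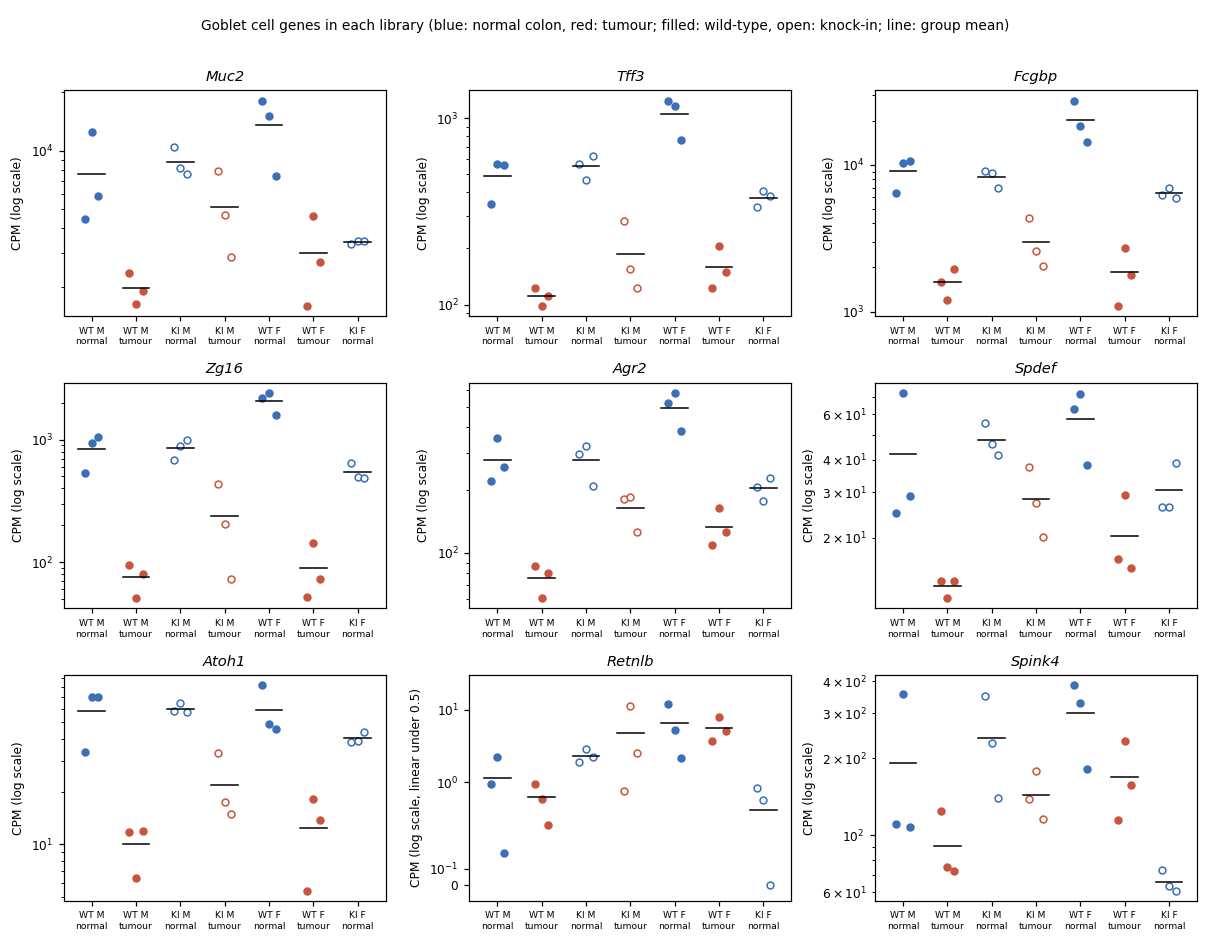
CPM (log axis; for Retnlb linear under 0.5) of each goblet cell gene in each of the 21 libraries, grouped by genotype (WT, KI), sex (M, F) and tissue; each point is a library and each line the mean of 3. For Tff3, Fcgbp and Zg16 all tumour libraries lie below all normal libraries of the same genotype and sex, and wild-type female normal colon lies highest.

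In wild-type males, 7 of the 9 goblet cell genes fell in tumours relative to normal colon and none rose; among all 15936 genes tested, 19.3% fell, 16.5% rose and 35.7% changed in either direction. The genes that fell were Muc2, Tff3, Fcgbp, Zg16, Agr2, Spdef and Atoh1, by 3.21-fold to 11.1-fold. Without overlap between the groups' libraries were the same 7 genes, as were 26.4% of all tested genes in this direction. Retnlb and Spink4 did not pass the test, here and in each fitted comparison the quasi-likelihood test of edgeR with p-values adjusted by Benjamini-Hochberg over all tested genes. The median over the 9 genes was −1.95 on the log2 scale, beside 0.01 over all tested genes. In bulk tissue, fewer goblet cells and less of these RNAs per cell cannot be told apart.

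Among the mucus proteins, Zg16 read 538, 930.5 and 1058.5 CPM in the 3 normal libraries and 93.97, 50.6 and 80.2 CPM in the 3 tumours. The groups lay far apart, and the fitted log2 change was −3.48 (SE 0.53, adjusted p = 0.000176 by edgeR). Fcgbp read 6476, 10282.5 and 10552 CPM in normal colon and 1592, 1207 and 1958 CPM in tumours, a log2 change of −2.52 (SE 0.34, adjusted p = 4.48e-05). Every tumour was well under every normal library for this mucus protein too. Muc2 read 4485, 12455 and 5896 CPM in normal colon, where replicate 2 was the high one, and 2358, 1638 and 1911 CPM in tumours. The gel-former thus varied more among normal libraries than among tumours, and its log2 change was −1.95 (SE 0.45, adjusted p = 0.00338).

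Among the smaller products, Tff3 read 347, 564 and 561 CPM in normal colon and 123, 98.4 and 111 CPM in tumours, a log2 change of −2.14 (SE 0.28, adjusted p = 3.89e-05). Agr2, the Muc2 folding enzyme, read 221, 353 and 259 CPM in normal colon and 86.55, 60.8 and 80.5 CPM in tumours, a log2 change of −1.86 (SE 0.23, adjusted p = 1.76e-05). The libraries of the 2 groups did not overlap for either gene. Spink4 read 110.5, 357 and 107 CPM in normal colon and 124, 75.4 and 72.8 CPM in tumours. Here the groups overlapped, since tumour replicate 1 exceeded normal replicates 1 and 3, and the log2 difference of −1.07 (SE 0.46) had an adjusted p of 0.0785; without wild-type male normal replicate 1 it was −1.38 with an adjusted p of 0.0389. Retnlb was close to the detection limit, with raw counts of 20, 30 and 2 in normal colon and 13, 2 and 4 in tumours, and its log2 difference of −0.81 (SE 1.06) was within the spread.

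The transcription factors were lower as well. Atoh1 read 34.0, 70.0 and 69.5 CPM in normal colon and 11.7, 6.40 and 12.0 CPM in tumours, a log2 change of −2.46 (SE 0.41, adjusted p = 0.000257). Spdef read 24.9, 72.6 and 28.85 CPM in normal colon and 13.6, 11.6 and 13.6 CPM in tumours, a log2 change of −1.68 (SE 0.38, adjusted p = 0.00288). Neither factor overlapped between the groups, and the high Spdef value came from normal replicate 2, the library that was also high for Muc2 and Spink4. Leaving out any 1 of the 6 libraries left between 7 and 8 of the 9 genes called. Rn45s, the ribosomal RNA precursor, took 9.30% to 13.1% of counts in these tumours and 4.90% to 8.26% in normal colon, and its part in the result was not tested.

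In wild-type females, Muc2, Tff3, Fcgbp, Zg16, Agr2, Spdef and Atoh1, 7 of the 9 genes, fell in tumours and none rose, where 24.0% of all tested genes fell, 25.0% rose and 49.1% changed. All 7 were without overlap, as were 28.6% of all tested genes in this direction. Zg16 read 2181, 2409 and 1576 CPM in normal colon and 51.5, 144 and 72.4 CPM in tumours, a 23.0-fold fall (log2 change −4.52, SE 0.56, adjusted p = 9.04e-06). Fcgbp read 27453, 18528 and 14383 CPM in normal colon and 1093, 2708 and 1772 CPM in tumours, a log2 change of −3.44 (SE 0.35, adjusted p = 1.07e-06). Both mucus proteins were separated between the groups by a wide margin. Muc2 read 18153, 15077 and 7394 CPM in normal colon and 1595, 4612 and 2696 CPM in tumours, a log2 change of −2.19 (SE 0.45). Tff3 read 1239.9, 1158 and 761 CPM in normal colon and 122, 205 and 149 CPM in tumours, a log2 change of −2.73 (SE 0.29). Neither the mucin nor the trefoil peptide overlapped between the groups.

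Agr2 read 519.98, 581 and 382 CPM in wild-type female normal colon and 109, 163 and 127 CPM in tumours, a log2 change of −1.89 (SE 0.23). Atoh1 read 81.6, 49.2 and 45.7 CPM against 5.43, 18.1 and 13.8 CPM, a log2 change of −2.24 (SE 0.40). Spdef read 62.9, 72.2 and 38.25 CPM against 16.6, 29.1 and 15.2 CPM, a log2 change of −1.51 (SE 0.37, adjusted p = 0.00293). The folding enzyme and both factors were thus lower in each tumour than in each normal library. Spink4 read 387, 331 and 182 CPM against 115, 233 and 158 CPM, overlapping, with a log2 difference of −0.83 (SE 0.45, adjusted p = 0.139). Retnlb, with 280, 38 and 14 counts in normal colon and 27, 68 and 46 in tumours, had a log2 difference of −0.26 (SE 0.82) that was 0.28 when libraries were scaled to epithelial markers. In each fit that left out 1 library, 7 genes were called. Rn45s took 7.96% to 10.0% of counts in these tumours and 2.84% to 3.18% in normal colon, and its part was not tested. The tumour-minus-normal change was tested for a difference between the sexes in wild-type mice: 0 of the 9 genes passed by edgeR, DESeq2 or limma voom, 0 had an unadjusted p under 0.05 by edgeR, and 1.12% of all tested genes passed.

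In knock-in males, 5 of the 9 genes fell in tumours and none rose, where 9.97% of all tested genes fell, 10.4% rose and 20.4% changed. The 5 were Tff3, Fcgbp, Zg16, Agr2 and Atoh1, and the median over the 9 genes was −0.77 beside 0.01 over all tested genes. Zg16 read 687, 887 and 987 CPM in normal colon and 431, 203 and 72.9 CPM in tumours, a log2 change of −1.85 (SE 0.50, adjusted p = 0.018). The 3 tumours differed widely, and replicate 3 lay within the range of the wild-type male tumours. Fcgbp read 9100.2, 8861 and 7003 CPM in normal colon and 4323, 2583 and 2034 CPM in tumours, a log2 change of −1.48 (SE 0.33, adjusted p = 0.00664). Tff3 read 568, 465 and 627 CPM against 279.6, 156 and 123 CPM, a log2 change of −1.57 (SE 0.28, adjusted p = 0.00262). Neither overlapped, and tumour replicate 1 was the highest tumour for all 3 genes.

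Muc2 itself read 10493, 8170.0 and 7576 CPM in knock-in male normal colon and 7893, 4670.1 and 2838 CPM in tumours. Tumour replicate 1 exceeded normal replicate 3, and the log2 difference of −0.77 (SE 0.44) did not pass (adjusted p = 0.217). Atoh1 read 58.1, 64.3 and 57.6 CPM against 33.4, 17.4 and 14.9 CPM, a log2 change of −1.45 (SE 0.38, adjusted p = 0.0151). Agr2 read 298, 326 and 208 CPM against 180.3, 184 and 127 CPM, a log2 change of −0.76 (SE 0.22, adjusted p = 0.0229). Spdef, at 55.3, 46.1 and 41.9 CPM against 37.6, 27.1 and 20.1 CPM, did not overlap either, but its log2 difference of −0.75 (SE 0.36) had an adjusted p of 0.144. Of all tested genes 17.5% were lower without overlap, as were 6 of the 9 goblet cell genes. Spink4 (log2 difference −0.73, SE 0.45) and Retnlb (1.06, SE 0.84) overlapped; the Retnlb value came from 188 counts in tumour replicate 2, without which it was −0.57.

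The count in knock-in males depended on single libraries: 3 genes were called without knock-in male tumour replicate 2 or replicate 3, and 4 without knock-in male normal replicate 2 or replicate 3. It was also 3 when only the 2 compared groups entered the fit. The genotypes' tumour-minus-normal changes in males were compared directly. The change was less negative in knock-in males for Agr2 by 1.10 (log2, SE 0.31, adjusted p = 0.0632), for Zg16 by 1.62 (SE 0.69, adjusted p = 0.162), for Muc2 by 1.18 (SE 0.62, adjusted p = 0.238) and for Fcgbp by 1.04 (SE 0.46, adjusted p = 0.171). Of the 9 genes 0 passed by edgeR, where 1.51% of all tested genes did, while 3 (Zg16, Agr2 and Fcgbp) had an unadjusted p under 0.05 and 1 passed by DESeq2 and 0 by limma voom. By edgeR 1 passed without knock-in male normal replicate 2 and 2 without knock-in male tumour replicate 3. The number of all tested genes that passed, 240, itself ran from 0 to 1326 over the alternatives.

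**Figure D2:**
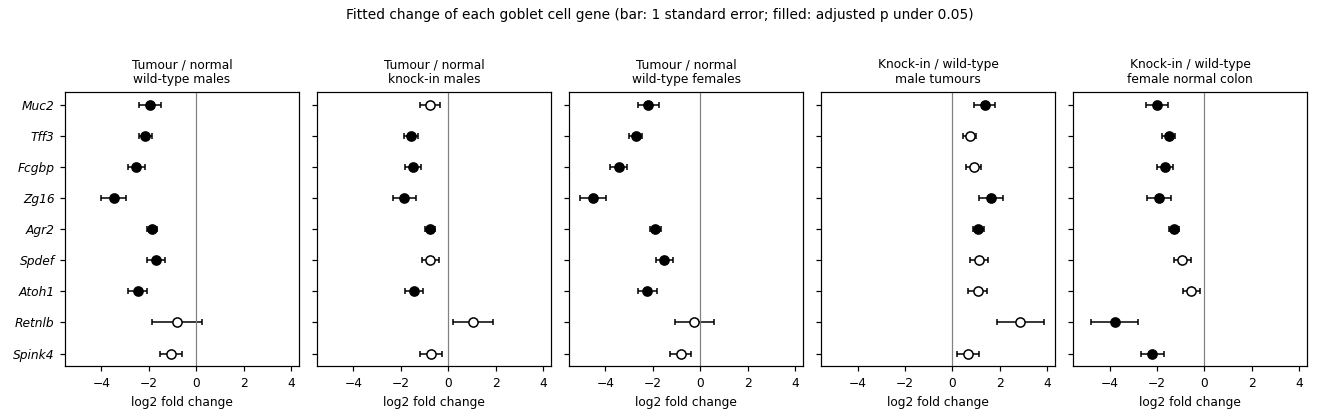
Fitted log2 fold change of the 9 goblet cell genes in 5 comparisons; bars show 1 standard error and filled points passed an adjusted p of 0.05. Points lie left of 0 in the 3 tumour comparisons, except Retnlb in knock-in males, right of 0 between knock-in and wild-type male tumours, and left of 0 between knock-in and wild-type female normal colon.

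Knock-in male tumours were set directly against wild-type male tumours. All 9 genes had higher fitted levels in the knock-in tumours, by 0.66 to 2.88 on the log2 scale with a median of 1.10, beside 0.05 over all tested genes. The test called 3 of them higher, Muc2, Zg16 and Agr2, where 9.30% of all tested genes were higher, 5.23% lower and 14.5% changed. For Agr2 the 3 knock-in tumours, at 127 to 184 CPM, all exceeded the wild-type ones, at 60.8 to 86.55 CPM (log2 change 1.10, SE 0.22, adjusted p = 0.00799). For Muc2 the tumours lay at 2838 to 7893 against 1638 to 2358 CPM, again without overlap (log2 change 1.38, SE 0.44, adjusted p = 0.0466). Zg16 overlapped, because knock-in tumour replicate 3 lay within the wild-type range (log2 change 1.64, SE 0.50, adjusted p = 0.0398).

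In all, 5 of the 9 genes were higher without overlap, as were 20.3% of all tested genes. Fcgbp, Spdef and Atoh1 were among them but had adjusted p of 0.0662, 0.0581 and 0.0783. Only Agr2 was called without wild-type male tumour replicate 1, 2 or 3 or without knock-in male tumour replicate 2; 2 genes were called without knock-in male tumour replicate 1 and 6 without knock-in male tumour replicate 3. With DESeq2's Wald test 8 of the 9 were called, while limma voom and edgeR without a low-count filter called 1. The shares above are those of the main edgeR fit: over the alternatives 1438 to 3011 of all tested genes were called, against 2315 there. Without knock-in male tumour replicate 1 the log2 difference was 0.82 for Zg16 and 0.89 for Muc2, and neither passed. Summed smooth muscle markers also differed, at 1051 to 1281 CPM in knock-in tumours against 339 to 987 CPM in wild-type ones, while summed epithelial markers overlapped, at 7544 to 9120 against 7522 to 7928 CPM. Rn45s took 6.95% to 8.23% of counts in knock-in and 9.30% to 13.1% in wild-type male tumours, also without overlap. The part of muscle content or of Rn45s in the result was not tested. In male normal colon, 0 of the 9 genes differed between the genotypes by edgeR, where 0.0126% of all tested genes did, 0 had an unadjusted p under 0.05, 0 passed by DESeq2 or limma voom, and the log2 differences ranged from −0.13 to 1.01.

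In normal colon of females, 7 of the 9 genes were lower in the knock-in and none higher than in wild-type, where 7.0% of all tested genes were lower, 8.97% higher and 16.0% changed. The median over the 9 genes was −1.65, beside 0.02 over all tested genes. Muc2 read 3335, 3447 and 3445 CPM in the 3 knock-in libraries, against 7394 to 18153 CPM in wild-type ones, a 3.97-fold fall (log2 change −1.99, SE 0.45, adjusted p = 0.00799). The knock-in libraries were nearly identical for this mucin. Fcgbp read 6235, 6995 and 5981 CPM (log2 change −1.65, SE 0.33, adjusted p = 0.00341) and Zg16 643, 499 and 488 CPM (−1.92, SE 0.50, adjusted p = 0.017). Each was below the lowest wild-type library.

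Tff3 read 333, 405 and 383 CPM in knock-in female normal colon, a log2 change of −1.50 (SE 0.28, adjusted p = 0.00206). Agr2 read 207, 177 and 227 CPM, a log2 change of −1.28 (SE 0.22, adjusted p = 0.00121). Spink4 read 73.0, 63.6 and 60.9 CPM, the lowest mean of any group, against 182 to 387 CPM in wild-type females (log2 change −2.19, SE 0.47, adjusted p = 0.00611). None of these 3 genes overlapped with wild-type females. Retnlb had 14, 5 and 0 counts, against 280, 38 and 14, a log2 change of −3.77 (SE 1.00, adjusted p = 0.0173), and the 0 counts of replicate b allow a level of up to 0.23 CPM, for counting error only. Its paralog Retnla, with which it could share reads, went the other way, with 135, 80 and 131 counts against 16, 3 and 27 (log2 change 2.47, SE 0.81, adjusted p = 0.0468). Without replicate b, 0 of 9 tested genes in the list of the type 2 cytokine axis, which includes Retnla, were called. The factors did not pass by edgeR: Spdef read 26.25, 26.2 and 39.0 CPM (log2 difference −0.92, SE 0.36, adjusted p = 0.0922) and Atoh1 38.6, 39.0 and 44.1 CPM (−0.55, SE 0.37, adjusted p = 0.335). Spdef did pass by DESeq2 (adjusted p = 0.0494), by limma voom (adjusted p = 0.0372) and by edgeR on the compared groups alone (adjusted p = 0.0344). Spdef overlapped with wild-type females and Atoh1 was just below their lowest library, so that 8 of the 9 genes were lower without overlap, as were 18.2% of all tested genes.

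Without knock-in female normal replicate b, the library with the Muc5b counts, 5 of the 9 genes were called lower; Zg16 (adjusted p = 0.0551) and Retnlb (adjusted p = 0.0531) were lost, and all 9 were lower without overlap. It was also 5 without wild-type female normal replicate 1 or knock-in female normal replicate a, 6 without wild-type female normal replicate 2 and 8 without wild-type female normal replicate 3. Wild-type female normal colon is also the reference of the tumour comparison in females, so these results share libraries. Other tissue markers differed between the same groups. Summed smooth muscle markers were at 7844 to 10987 CPM in knock-in and 2231 to 5140 CPM in wild-type females. Of the 10 markers 5 were called higher, beside 8.97% of all tested genes, and 4 without replicate b. Summed epithelial markers overlapped, at 10078 to 10540 against 10468 to 11689 CPM, as did colonocyte markers, at 3496 to 4331 against 2657 to 6907 CPM. Rn45s took 4.85% to 5.96% of counts in knock-in and 2.84% to 3.18% in wild-type females, and neither its part nor that of muscle was tested.

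The sexes were compared within each genotype. In wild-type normal colon, 3 genes were higher in females and none lower, where 5.74% of all tested genes were higher, 10.2% lower and 15.9% changed: Tff3 (log2 change 1.10, SE 0.27, adjusted p = 0.0124), Fcgbp (1.14, SE 0.33, adjusted p = 0.0249) and Agr2 (0.83, SE 0.22, adjusted p = 0.0165). These 3 and Zg16 (log2 difference 1.29, SE 0.49, adjusted p = 0.0829) were higher without overlap, 4 of the 9 genes, as were 16.7% of all tested genes. The count was 0 without wild-type female normal replicate 1 or 2 or wild-type male normal replicate 1, and 5 by DESeq2 or limma voom. Limma voom also called more of all tested genes, 5317 against 2534 by edgeR. Other markers moved with sex here: 10 of 10 crypt stem cell markers (median −1.16), 3 of 6 Paneth cell markers (median −4.10) and 3 of 10 smooth muscle markers (median −1.14) were lower in females and none higher. Rn45s took 2.84% to 3.18% of counts in females and 4.90% to 8.26% in males. Their part in the result was not tested. In knock-in normal colon the 9 fitted differences were negative, from −0.38 for Fcgbp to −2.27 for Retnlb. By edgeR 0 passed, where 0.584% of all tested genes did, 3 (Muc2, Retnlb and Spink4) had an unadjusted p under 0.05, and 1 passed by DESeq2 or limma voom. Over the alternatives the number of all tested genes called ran from 17 to 666, against 93 by edgeR. Lower without overlap were 8 of the 9, Agr2 excepted, and 9.70% of all tested genes; without replicate b 9 were, and 0 passed by edgeR. In wild-type tumours 0 passed by edgeR, where 0.860% of all tested genes did, 2 (Agr2 and Retnlb) had an unadjusted p under 0.05, and 2 passed by DESeq2 or limma voom. That share is edgeR's alone: over the alternatives the number of all tested genes called ran from 121 to 2916, against 137 by edgeR. Agr2 (log2 difference 0.80, SE 0.22, adjusted p = 0.0698), Spdef and Retnlb were higher in each female than in each male tumour, 3 of the 9 genes, as were 16.0% of all tested genes.

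The genotype difference in normal colon was then compared between the sexes. Tff3 (−1.67 in females minus males on the log2 scale, SE 0.39, adjusted p = 0.0292) and Agr2 (−1.28, SE 0.31, adjusted p = 0.0362) passed, where 2.54% of all tested genes did and 0.778% in this direction. Spink4 (−2.51, SE 0.64, adjusted p = 0.0502), Retnlb (−4.79, SE 1.34, adjusted p = 0.0675), Muc2 (−2.19, SE 0.62, adjusted p = 0.0728) and Fcgbp (−1.52, SE 0.46, adjusted p = 0.0867) did not. The count was 0 without wild-type female normal replicate 1 or 2, wild-type male normal replicate 1, knock-in male normal replicate 2 or any 1 knock-in female normal library. It was 1 without wild-type male normal replicate 3 or knock-in male normal replicate 1, 5 without wild-type female normal replicate 3 and 6 without wild-type male normal replicate 2.

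To set the genes against the epithelium in each sample, each level was divided by the summed level of the 10 epithelial markers. Relative to this sum, the tumours of wild-type males lay below normal colon without overlap for 7 of the 9 genes, where 14.6% of all tested genes did. In wild-type females 6 genes were lower, Spdef (−0.88) not among them, where 11.4% of all tested genes were. In knock-in males 5 genes were lower, where 12.0% were. With Epcam alone as denominator, or with 0.5 CPM added to each level, the counts depended on the setting. They were 6 to 7 in wild-type females and 5 to 7 in knock-in males. Zg16 differed by −3.15, −3.99 and −2.09 on the log2 scale in these 3 comparisons. Knock-in female normal colon lay below wild-type for 8 of the 9 genes, Spdef excepted, where 11.5% of all tested genes did, with −1.80 for Muc2 and −2.03 for Spink4 and no difference computed for Retnlb, which had 0 counts in replicate b. Without that library all 9 were lower. Knock-in male tumours lay above wild-type ones for 5 of the 9, where 16.1% of all tested genes did. With 3 libraries against 3, the exact two-sided permutation test cannot go below p = 0.1, which is the value of each computed difference without overlap.

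The 9 genes did not keep their proportions to one another, as ratios to Muc2 in the same library show; this comparison was chosen after the data had been seen. Zg16 was 12.0%, 7.47% and 18.0% of Muc2 CPM in wild-type male normal colon and 3.99%, 3.09% and 4.20% in the tumours. It was 12.0%, 16.0% and 21.3% in wild-type female normal colon and 3.23%, 3.13% and 2.69% in the tumours. In knock-in males it was 6.54%, 10.9% and 13.0% in normal colon and 5.46%, 4.35% and 2.57% in tumours. No tumour library reached any normal library of its genotype and sex, while 0.590% of all tested genes in wild-type males, 1.58% in wild-type females and 1.12% in knock-in males had such a lower ratio. Fcgbp relative to Muc2 was lower without overlap in wild-type female and knock-in male tumours, and overlapped in wild-type males. Tff3 (log2 difference −0.77) and Atoh1 (−0.67) were also lower without overlap in knock-in male tumours, and overlapped in wild-type males and females.

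Spink4 went the other way relative to Muc2. It was 1.82% to 2.87% of Muc2 CPM in wild-type male normal colon and 3.81% to 5.27% in the tumours, and 2.13% to 2.46% in wild-type female normal colon and 5.05% to 7.19% in the tumours. A higher ratio to Muc2 was the rule for genes outside the list, at 79.8% of all tested genes in wild-type males and 76.4% in wild-type females. In knock-in males the Spink4 ratio overlapped between tumours and normal colon. Zg16 in knock-in female normal colon, at 14.2% to 19.3% of Muc2, overlapped with wild-type females, at 12.0% to 21.3%. Atoh1 (log2 difference 1.40) and Spdef (0.99) were higher there relative to Muc2 without overlap. Retnlb, with 0 counts in replicate b, was lower, and the other genes overlapped. A share of all tested genes is not given for that comparison. The exact permutation p was 0.1 for each non-overlapping ratio other than that of Retnlb, the smallest value possible.

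**Figure D3:**
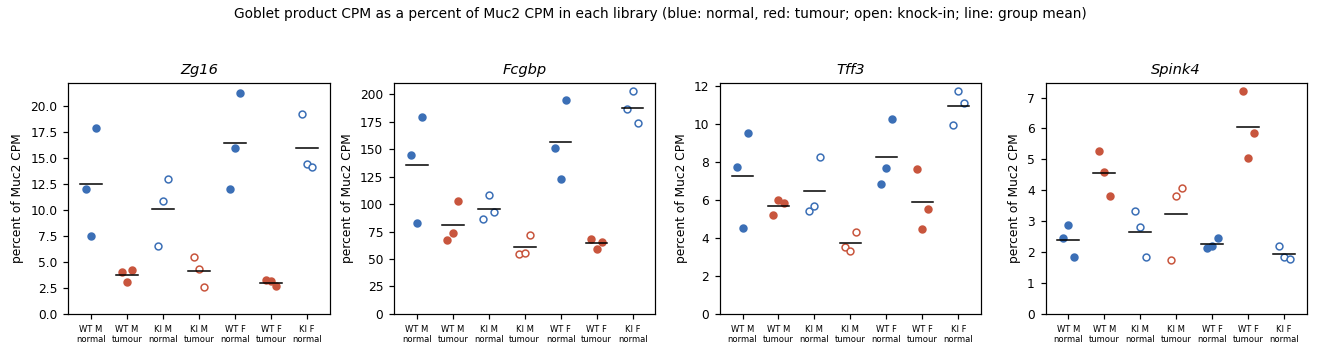
CPM of Zg16, Fcgbp, Tff3 and Spink4 as a percent of Muc2 CPM in the same library, for the 7 groups; each point is a library and each line the mean of 3. Zg16 lies at or below 5.46% in all 9 tumours and at or above 6.54% in all 12 normal libraries, and Spink4 is higher in wild-type tumours than in wild-type normal colon.

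Of all tested genes, 19.3% were lower and 16.5% higher in wild-type male tumours, and 24.0% and 25.0% in wild-type female ones. In knock-in male tumours 9.97% were lower and 10.4% higher, and between male tumours 5.23% and 9.30%. Beside these shares, other goblet cell genes were described with a list of 20, of which 17 could be tested. In wild-type males 12 were lower in tumours and none higher, among them Nlrp6, an inflammasome sensor linked to mucus secretion (log2 change −3.02, SE 0.38), Scin, an actin-severing protein (−3.02, SE 0.45), Best2, a bicarbonate-permeable anion channel (−2.83, SE 0.40), and Rep15 (−2.57, SE 0.32). In wild-type females 12 were lower and 2 higher; the antimicrobial ribonuclease gene Ang4 rose by 4.54 (SE 0.79) and the gastric-type mucin gene Muc6 by 3.67 (SE 1.05). In knock-in males 8 were lower and none higher, led by Best2 (−2.09, SE 0.36). Between the male tumours, 7 were higher in the knock-in and none lower, led by Best2 (1.55, SE 0.39) and Rep15 (1.55, SE 0.32). Clca1, the symbol of a mucus protease, had low group means of 7.58 to 22.2 CPM. Which gene the deposited symbol stands for was not checked. Clca1 did not pass in any of the 3 tumour comparisons, at −0.58, −0.35 and 0.00 in wild-type males, knock-in males and wild-type females.

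In knock-in female normal colon, 8 of these genes were lower and 1 higher than in wild-type, beside 7.0% and 8.97% of all tested genes. Without replicate b, 7 were lower and none higher. Tpsg1, a tryptase (−1.94, SE 0.36), Sytl2, a regulator of granule exocytosis (−1.55, SE 0.25), and Clca1 (−1.54, SE 0.29) fell, without overlap. The higher one was Muc5b, by a fitted 8.58 (SE 2.06), which rests on replicate b: the other 20 libraries of the series had 6 to 37 counts. Nlrp6 (−0.24, SE 0.35) and Best2 (−0.21, SE 0.35), which fell in wild-type male tumours, did not pass there.

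Of 17 tested genes for mucin glycosylation and folding, 13 were lower in wild-type male tumours, beside 19.3% of all tested genes, and 14 in wild-type female tumours, beside 24.0%, with none higher. St3gal4, a sialyltransferase, fell by 2.54 in males and by 3.17 in females, Galnt5, which starts O-glycan chains, by 2.33 and 2.15, and Gal3st2, a sulfotransferase, by 2.10 and 2.75. In knock-in males 3 were lower, beside 9.97% of all tested genes, led by Gal3st2 (−1.26, SE 0.24) and Ern2, the stress sensor of goblet cells (−0.92, SE 0.22). Galnt3 was higher (0.83, SE 0.20), and 13 did not pass. Between the male tumours 8 were higher in the knock-in, beside 9.30% of all tested genes, and none lower, led by Galnt5 (1.71, SE 0.40) and Gcnt3, a branching enzyme (1.31, SE 0.27). In female normal colon 11 were lower in the knock-in, 10 without replicate b, and none higher, beside 7.0% of all tested genes lower. The most changed were the fucosyltransferase gene Fut2 (−1.76, SE 0.27) and the chaperone gene Hspa5 (−1.44, SE 0.28).

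Of 12 other transcription factors of the secretory and intestinal lineages, 7 were lower in wild-type male tumours, beside 19.3% of all tested genes. Among them were Klf4, a factor of terminal goblet differentiation (−1.98, SE 0.31), Cdx2 (−1.71, SE 0.32) and Cdx1 (−1.60, SE 0.18), both intestinal identity factors, and Creb3l1 (−1.48, SE 0.27). Foxa1 was higher by 0.30 (SE 0.11). In wild-type female tumours 7 were lower and 1 higher, beside 24.0% and 25.0% of all tested genes, again with Klf4 (−2.69, SE 0.32) the most changed. In knock-in male tumours 5 were lower, beside 9.97%, led by Creb3l1 (−1.23, SE 0.27). In knock-in female normal colon 5 were lower, beside 7.0% of all tested genes, and none higher. The most changed were Cdx2 (−1.25, SE 0.31) and Gfi1, which acts downstream of Atoh1 (−1.08, SE 0.27), while Klf4 differed by 0.15 (SE 0.30). Without replicate b 4 were lower; Gfi1 was lost (adjusted p = 0.0587).

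Notch signalling holds back the secretory fate. Of 18 tested pathway genes, 6 were higher in wild-type male tumours, beside 16.5% of all tested genes, and none lower. The target Hey1 (1.55, SE 0.35), the ligand Jag2 (1.44, SE 0.38), Hes6 (1.38, SE 0.24) and the modifier Lfng (1.16, SE 0.14) changed most. In wild-type female tumours 8 were higher and 2 lower, beside 25.0% and 24.0% of all tested genes. In knock-in male tumours 1 was higher, Adam10 (0.77, SE 0.18), beside 10.4%. In the knock-in female normal colon 6 were higher and none lower, beside 8.97% higher, led by the receptor Notch3 (2.21, SE 0.29). As many were higher without replicate b. The part of Notch signalling in the goblet cell results was not tested. Hes1, the target that represses Atoh1, differed by −0.01 (SE 0.22) in wild-type males, −0.04 (SE 0.22) in wild-type females and 0.32 (SE 0.22) in knock-in female normal colon, and did not pass. The type 2 cytokine axis drives goblet hyperplasia and Retnlb. Among 9 tested genes of this axis, 3 were higher and 2 lower in wild-type male tumours, beside 16.5% and 19.3% of all tested genes. In wild-type female tumours 5 were higher and 2 lower, beside 25.0% and 24.0%. In knock-in male tumours 1 was higher, beside 10.4%. The alarmin gene Il33 rose in all 3 tumour comparisons, by 1.28 (SE 0.41), 2.09 (SE 0.42) and 3.24 (SE 0.44) in wild-type males, knock-in males and wild-type females. Il4, Il13, Il5 and Il25 were too low to test.

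Other epithelial lineages and tissue layers moved in the same comparisons. Of all tested genes, 19.3% were lower and 16.5% higher in wild-type male tumours, and 24.0% and 25.0% in wild-type female ones. In knock-in male tumours these shares were 9.97% and 10.4%, between male tumours 5.23% and 9.30%, and in knock-in female normal colon 7.0% and 8.97%. In wild-type male tumours 8 of 9 colonocyte markers, 9 of 10 enteroendocrine markers and 10 of 10 smooth muscle markers were lower, 6 of 10 epithelial markers were lower and 1 higher, and 7 of 10 crypt stem cell markers were higher with none lower. Medians were −3.01 for colonocyte, −2.35 for enteroendocrine, −3.93 for smooth muscle and −0.42 for epithelial markers, beside −1.95 for the 9 goblet cell genes. In wild-type female tumours all 9 colonocyte, 10 enteroendocrine and 10 smooth muscle markers were lower and all 10 stem cell markers higher. Paneth cell markers, from the secretory lineage that also gives goblet cells, were higher for 6 of 6 in wild-type female tumours (median 5.84), for 1 of 6 in wild-type male tumours and for 0 of 6 in knock-in male tumours. In knock-in male tumours 5 of 9 colonocyte, 7 of 10 enteroendocrine and 10 of 10 smooth muscle markers were lower. Of 8 tuft cell markers, 1 was higher and 1 lower in wild-type male, 2 higher and 3 lower in wild-type female and 1 lower in knock-in male tumours. In knock-in female normal colon 1 of 9 colonocyte and 1 of 10 enteroendocrine markers were lower, with medians of −0.44 and −0.88 beside −1.65 for the 9 goblet cell genes; whether the lists differ was not tested. There, 3 of 10 crypt stem cell markers were higher, 2 of 8 tuft cell markers lower and 0 of 6 Paneth cell markers called. Without replicate b, 0 colonocyte markers and 1 enteroendocrine marker were lower, and 2 crypt stem cell markers were higher. Of the tuft cell markers 1 was then higher and 2 were lower, and 0 Paneth cell markers were called. Of 8 leukocyte markers, 1 was higher in wild-type male tumours, 3 higher and 2 lower in wild-type female tumours, 2 lower in knock-in male tumours, 1 lower between male tumours and 1 higher in knock-in female normal colon. The part of these cells in the goblet cell results was not tested.

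**Figure D4:**
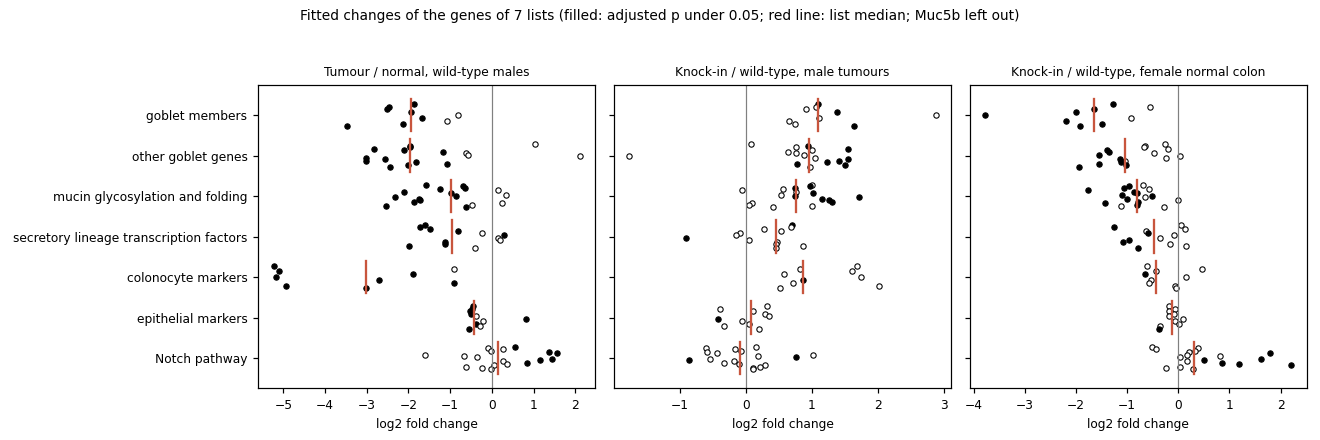
Fitted log2 fold changes of the genes of 7 lists in 3 comparisons (x axis differs between panels); filled points passed an adjusted p of 0.05, red lines mark medians, and Muc5b is left out. Most goblet, glycosylation and colonocyte genes lie left of 0 in the panel of wild-type male tumours, and in that of knock-in female normal colon most goblet and glycosylation genes lie left of 0 while most epithelial markers lie near it.

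The genes nearest to Muc2 over the 21 libraries were found by the root mean square difference of centred log2 CPM. This covered 11848 genes with a mean of at least 50 counts, after predicted (Gm, Rik), ribosomal protein and mitochondrial gene names were left out. The distance counts the size of changes as well as their direction. The 8 nearest were Slc12a8 (0.30), Ano7 (0.36), Ptprn2 (0.37), Spdef (0.38), Cgref1 (0.40), Tpsg1 (0.40), St6gal1 (0.41) and Sytl2 (0.42). Of the 9 goblet cell genes, Spdef ranked 4, Agr2 9, Tff3 21, Atoh1 52, Spink4 70 and Fcgbp 81, whereas Zg16 (1.03) ranked 5002. Zg16 moved in the same direction as Muc2 in each tumour comparison but by more, so its rank does not show an opposite or unrelated course. Retnlb was below the count minimum. The libraries share tissue, processing and the groups' differences, so these distances are a description and no test.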

How the data were processed

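RNA of 21 mouse colon libraries was sequenced after removal of ribosomal RNA and priming with random hexamers, per the labels' protocols. The deposited table holds raw counts per gene, made by the authors with Trimmomatic, HISAT2 and featureCounts on mm10, per the submitters' processing notes, which also name DESeq2; annotation release, strand setting and the handling of multiply mapped reads are not given in the sources used here. A column name that occurs 2 times in the knock-in female normal group was read as replicates a and b.

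Counts were fitted with edgeR 4.0.16 in R 4.3.3, with TMM scaling, its low-count filter (15936 of 24062 genes kept, all 9 goblet cell genes among them) and 1 coefficient for each of the 7 groups over all 21 libraries. Robust quasi-likelihood tests, two-sided, covered 9 comparisons of 2 groups and 3 differences between comparisons, with Benjamini-Hochberg adjustment over all tested genes at 0.05. Alternatives were DESeq2 1.42.0, limma 3.58.1 (voom), other scalings and filters, fits to the compared groups alone, a replicate block and leaving out each library; values of the other lists and of ratios without knock-in female normal replicate b were added after the data were seen. Same-numbered wild-type male tumour and normal libraries had correlated deviations (0.17, 0.17 and 0.21), whereas those of knock-in males had −0.30, 0.06 and 0.06. Same-numbered male normal libraries of the 2 genotypes, which cannot share an animal, had 0.46, −0.21 and −0.07, so the numbers do not establish pairs. The replicate block was 1 effect per number, shared by all groups with 3 numbered libraries, and not a fit of pairs. With it 7 genes were called in wild-type males, as without it. Ratios to the epithelial marker sum or to Muc2 were compared with exact permutation tests. Of each other list, up to 4 genes past the threshold with the largest change and a mean of at least 50 counts in a compared group could be named. Foxa1, and Clca1, Nlrp6, Best2, Klf4 and Hes1 where they did not pass, were named after their values were seen. The 9 genes and the lists were chosen with earlier results of these data known.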

Additional observations from a re-analysis of the deposited data

Results flagged for a closer look

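The knock-in minus wild-type difference in normal colon was more negative in females than in males, by edgeR's interaction test, for 2 of the 9 goblet cell genes and 3 of 17 other goblet cell genes, where 0.778% of all tested genes were lower in this way. The difference between the sexes on the log2 scale was −1.67 for Tff3 (SE 0.39, adjusted p = 0.0292), −1.28 for Agr2 (SE 0.31, adjusted p = 0.0362), −2.21 for Clca1 (SE 0.41, adjusted p = 0.00934), −1.58 for Sytl2 (SE 0.35, adjusted p = 0.0242) and −1.95 for Tpsg1 (SE 0.49, adjusted p = 0.0408). When each of the 12 libraries was left out in turn, Clca1 passed each time, with adjusted p from 0.00513 to 0.0325. Tff3 failed 8 times (adjusted p up to 0.0869), Agr2 9 times (up to 0.11), Sytl2 6 times (up to 0.0774) and Tpsg1 10 times (up to 0.12). Without knock-in female normal replicate b the adjusted p was 0.059 for Tff3, 0.0524 for Agr2, 0.0193 for Clca1, 0.0471 for Sytl2 and 0.0914 for Tpsg1.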

How the results depend on the processing

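With 1 library left out, the number of the 9 goblet cell genes called ranged from 3 to 5 in knock-in male tumours against normal colon, from 1 to 6 between male tumours, from 0 to 4 between the sexes in wild-type normal colon, from 0 to 2 for the difference between genotypes in the male tumour change and from 0 to 6 for the difference between the sexes in normal colon. A fit of only the compared groups called 3 in knock-in males, 2 between the sexes in wild-type tumours and 2 in knock-in normal colon. Between male tumours, 8 were called by DESeq2, 1 by limma voom, 1 without a low-count filter and 1 with the replicate block. Same-numbered libraries of these tumours did not deviate together. No replicate block was fitted with knock-in females, whose repeated column name leaves 1 numbered library. DESeq2 and limma voom each called 2 between the sexes in wild-type tumours, 5 in wild-type normal colon, 1 in knock-in normal colon and 6 for the difference between the sexes in normal colon, and DESeq2 called 1 for the difference between genotypes in males. Scaling to epithelial markers called 1 between the sexes in wild-type tumours, and with Epcam alone as denominator 2 genes were non-overlapping there, against 5 with the marker sum. The cause of these changes was not tested.

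Reversed differences were those of genes that did not pass. Retnlb in wild-type females was 0.28 under epithelial scaling, Atoh1 between the sexes in wild-type normal colon −0.0457 with library totals and −0.057 under epithelial scaling, and Spink4 in the difference between genotypes −0.25 by limma voom. With 1 library left out, Retnlb ranged from −1.41 to 0.031 in wild-type males, from −0.57 to 1.505 in knock-in males and from −0.65 to 0.56 in wild-type females. Between the sexes in wild-type tumours, Fcgbp ranged from −0.15 to 0.50, Zg16 from −0.29 to 0.52 and Atoh1 from −0.10 to 0.61; Atoh1 in wild-type normal colon ranged from −0.28 to 0.19, and Spink4 in the difference between genotypes from −0.51 to 0.70.

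Among all tested genes, fits of only the compared groups called 724 in knock-in males against 3246, and 1438 between male tumours against 2315, where epithelial scaling called 1481. Limma voom called 4457 in female normal colon against 2545 and 5317 between the sexes in wild-type normal colon against 2534, where only the compared groups gave 1623. Between the sexes in wild-type tumours the count was 137 and went from 316 to 2916 under 5 alternatives. Over the alternatives the count ran from 17 to 666 around 93 between the sexes in knock-in normal colon, from 0 to 1326 around 240 for the difference between genotypes in males, from 23 to 1445 around 179 for the difference between the sexes in the wild-type tumour change and from 254 to 1093 around 405 for that in normal colon. In female normal colon the 9 goblet cell genes called numbered 6 to 8 over the alternatives. Epithelial scaling shifted the median of all genes by 0.28 in wild-type male, 0.52 in wild-type female and 0.13 in knock-in male tumours and by 0.14 in knock-in female normal colon, and raised the share of called genes that were higher from 46.0% to 72.2%, from 51.0% to 81.1%, from 51.05% to 69.1% and from 56.15% to 83.8%.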
